A study of Homo sapiens with 4 samples.

Results

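Bone morphogenetic proteins (BMPs) are secreted ligands that signal through receptor kinases to the transcription factors SMAD1, SMAD5 and SMAD9. This group of 10 genes holds the secreted BMP antagonists GREM1 and NOG, the receptors BMPR1A and BMPR2, the signal-carrying SMAD1 and SMAD5, the inhibitory SMAD6 and the target genes ID1, ID2 and ID3. The genes were taken by symbol, with the probe set of highest mean where a gene had several. Of the 10, 9 were measured among 18377 genes, and BMPR1A is not analysed here. GREM1 and NOG were chosen by their measured difference between the groups compared here, so that this difference is described for both and not tested.

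Total RNA from 4 human precursor B-cell acute lymphoblastic leukaemia (ALL) lines was measured on Affymetrix whole-transcript arrays, 1 array a line. The translocation lines, RS4;11 and SEM, have t(4;11), by which the MLL gene is rearranged, and NALM6 and REH lack it. All 4 were untreated and grown in RPMI medium with serum to below confluency. The comparison addresses how expression differs with a rearranged MLL gene. Each group is 2 established lines, so any other difference between these lines, their culture or their arrays enters the comparison. Values are log2 expression as the submitters processed it, and group values are given as mean ± SD over n = 2 lines. The arrays had 25th percentiles of 4.97 to 5.02 and medians of 6.40 to 6.46 over all probe sets, and a fold taken against a value near the 25th percentile is compressed.

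BMP ligands bind a pair of receptor types, and the activated complex phosphorylates SMAD1, SMAD5 and SMAD9, which join SMAD4 and act in the nucleus. Antagonists such as gremlin 1 (GREM1) and noggin (NOG) bind the ligand outside the cell and keep it from its receptors. SMAD6 and SMAD7 inhibit the pathway from within, and the ID genes are among its best known direct targets. ID proteins bind E proteins such as those of TCF3, TCF4 and TCF12, which drive B-lineage genes, and keep them from DNA.

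The labelled cell type was checked on B-lineage markers. CD79A lay between 11.05 and 12.35, PAX5 between 11.61 and 11.90 and CD22 between 11.10 and 11.65 over the 4 lines. CD79B was at 7.63 in SEM and at least 9.99 in the other lines, and VPREB1 was at 11.35 in RS4;11 and 7.57 in SEM, against 10.86 in NALM6 and 5.51 in REH. The T-cell markers CD3D, CD3E and CD3G lay between 4.54 and 4.97 in every line.

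The sequences before the start sites of GREM1, ID1, ID2 and ID3 are shown because GREM1 had the largest group difference of these genes, while ID1 and ID2 shared a pattern over the lines that ID3 did not have. Each is the 250 bases upstream of the annotated start, from RefSeq on GRCh38.p14, and 9 of the 10 genes were matched to the promoter sequences used here. Capitals mark the letters GGCGCC and CAGAC, which BMP SMADs and SMAD4 are known to bind, and CCAAT, a common promoter element, each on either strand. CCAAT was added after the sequences had been read.
GREM1, most upstream of 2 starts, chr15:32717754-32718003, plus strand: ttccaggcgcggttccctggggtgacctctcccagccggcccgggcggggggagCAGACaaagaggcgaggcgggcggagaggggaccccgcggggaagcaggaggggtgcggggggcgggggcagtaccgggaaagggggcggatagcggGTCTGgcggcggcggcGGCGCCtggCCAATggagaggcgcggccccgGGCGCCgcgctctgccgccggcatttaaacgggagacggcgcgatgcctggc
ID1, chr20:31605039-31605288, plus strand: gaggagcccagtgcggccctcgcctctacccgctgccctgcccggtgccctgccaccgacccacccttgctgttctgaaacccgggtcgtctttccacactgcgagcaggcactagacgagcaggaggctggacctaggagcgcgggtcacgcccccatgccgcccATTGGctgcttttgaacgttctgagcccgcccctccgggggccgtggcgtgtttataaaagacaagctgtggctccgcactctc
ID2, chr2:8681806-8682055, plus strand: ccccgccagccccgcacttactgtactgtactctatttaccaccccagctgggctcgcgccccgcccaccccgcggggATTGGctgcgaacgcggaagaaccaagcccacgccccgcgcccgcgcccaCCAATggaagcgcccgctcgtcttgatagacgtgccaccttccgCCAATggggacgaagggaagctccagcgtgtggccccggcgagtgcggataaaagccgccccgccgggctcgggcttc
ID3, chr1:23559502-23559751, minus strand: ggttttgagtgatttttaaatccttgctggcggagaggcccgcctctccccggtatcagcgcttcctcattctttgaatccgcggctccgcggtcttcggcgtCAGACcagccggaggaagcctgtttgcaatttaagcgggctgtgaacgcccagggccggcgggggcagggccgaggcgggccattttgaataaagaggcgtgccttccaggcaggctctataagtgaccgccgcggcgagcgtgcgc

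The GREM1 window shown held GGCGCC at 2 places, CAGAC or its reverse complement at 2 and CCAAT at 1. The window of the other GREM1 start, not printed, held CAGAC once and neither GGCGCC nor CCAAT. The ID1 window held CCAAT once and the ID2 window 3 times, and neither held GGCGCC or CAGAC. The ID3 window held CAGAC once and neither of the others. Over all 35116 windows of the same length, 16.4% held GGCGCC, 38% CAGAC and 32% CCAAT. Those shares were not matched for GC content. The GREM1 window shown was 76.8% GC and the ID windows 62% to 69.2%, against a median of 58% over all windows. These matches describe the letters of these windows alone, and distal sites were not searched.

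GREM1 (probe set 7982377) was at 9.70 in RS4;11 and 10.26 in SEM, against 5.34 in NALM6 and 5.51 in REH. Both translocation lines were high, and both other lines lay below their array's median. The group means were 9.98 ± 0.39 and 5.42 ± 0.12 (SD, n = 2), a difference of 4.55 or 23.5-fold, and the nearest lines of the 2 groups were 18.3-fold apart. In RNA from whole cultures, fewer cells with a transcript and less transcript per cell cannot be told apart.

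NOG (8008627) was at 10.15 in RS4;11 and 10.34 in SEM, against 6.21 in NALM6 and 7.36 in REH. The translocation lines were again high and close to each other, while NALM6 lay 2.22-fold below REH. The means were 10.25 ± 0.14 and 6.79 ± 0.81 (SD, n = 2), a difference of 3.46 or 11-fold. The nearest lines, RS4;11 and REH, were 6.9-fold apart. NOG kept the order SEM, RS4;11, REH, NALM6 from high to low, as did GREM1. In NOG the neighbours in that order within a group differed by 1.14-fold (SEM and RS4;11) and 2.22-fold. For GREM1, NALM6 and REH differed by only 1.12-fold, at values near the 25th percentile, so nothing is read from their order. The order between the groups follows from how both genes were chosen. Nothing is therefore read from the order that GREM1 and NOG share. A separation of at least 2-fold between the groups, without a test, held for 1.84% of all genes (0.963% higher in the translocation lines), and since it chose GREM1 and NOG nothing is read from their count of 2.

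**Figure D1:**
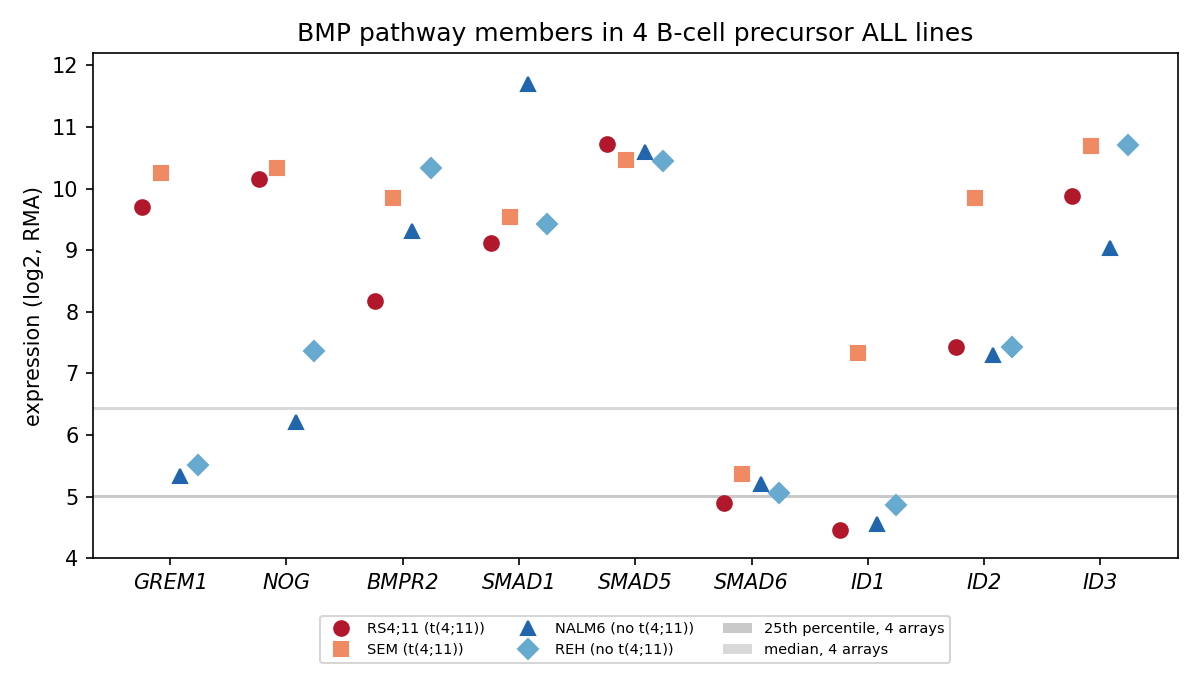
Log2 expression of the 9 measured genes in each line, with 1 point per array, and bands for the 25th percentile and the median of the 4 arrays. GREM1 and NOG were higher in RS4;11 and SEM than in NALM6 and REH, ID1 and ID2 were highest in SEM, SMAD1 was highest in NALM6 and BMPR2 lowest in RS4;11.

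Gremlin 1 is known as a product of fibroblasts, and stromal markers were therefore set beside it. The summed linear level of the 8 stromal and fibroblast markers was 592.4 and 876.8 in the translocation lines and 2053 and 522.9 in NALM6 and REH. COL1A1, COL1A2, COL3A1, DCN, LUM and THY1 lay between 4.49 and 6.23 in every line, and none differed between any lines by as much as 2-fold. PDGFRA was at 10.76 in NALM6 and at most 4.75 elsewhere. PDGFRB was at 8.39, 9.29, 6.68 and 8.13 in RS4;11, SEM, NALM6 and REH. The markers of T and NK cells summed to 2159 and 681.3 in the translocation lines and 210.5 and 254 in the others, and NKG7 alone among them was above the array median in any line, at 10.99 in RS4;11 and 9.13 in SEM, against 6.39 in NALM6 and 7.11 in REH. The part of NKG7 and PDGFRB in the GREM1 and NOG difference was not tested.

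None of the 7 genes that were not picked for the contrast passed the test between the groups. At an adjusted p under 0.05 in limma 0 of the 7 were called, and at an unadjusted p under 0.05 also 0. Over all genes limma called 0.0218% at the adjusted threshold (0.0109% in each direction) and 9.39% at the unadjusted p. In 0 of the 7 did the groups fail to overlap, against 42.8% of all genes. The limma intervals were wide for most of these genes, and an exact permutation test of 2 lines against 2 has a smallest p of 0.33.

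BMPR2 (8047538), the type II receptor of BMPs, was at 8.18 in RS4;11 and 9.84 in SEM, against 9.31 in NALM6 and 10.33 in REH. RS4;11 stood lowest, 2.19-fold below NALM6, and the groups overlapped because SEM lay between NALM6 and REH. The groups differed by -0.81 (SE 0.76, 95% interval -3.10 to 1.47, limma adjusted p = 0.772), and the difference was 0.02 without RS4;11. RS4;11 was at least 2-fold below each of the other 3 lines in 0.669% of all genes. BMPR2 shared this place with 2 of the other 10 measured receptors and co-receptors, which were chosen for mention after their values were seen. ACVR2B, another type II receptor, was at 5.07 in RS4;11 and between 6.83 and 7.19 elsewhere. RGMB, a BMP co-receptor, was at 5.73 in RS4;11 and 7.54 in SEM, against 7.55 in NALM6 and 8.66 in REH.

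SMAD1 (8097657) was at 9.12 in RS4;11 and 9.54 in SEM, against 11.70 in NALM6 and 9.43 in REH. NALM6 stood 4.46-fold above the next line, and the other 3 lines lay within 0.42 of each other. The group difference was -1.23 (SE 0.90, 95% interval -3.93 to 1.47, limma adjusted p = 0.741). It fell in size to -0.10 without NALM6. NALM6 was at least 2-fold above each of the other lines in 1.19% of all genes.

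SMAD5 (8108238), the close relative of SMAD1, was at 10.73 in RS4;11 and 10.47 in SEM, against 10.60 in NALM6 and 10.45 in REH. All lines lay within 1.22-fold, with RS4;11 and NALM6 above SEM and REH. The means differed by 0.08 (SE 0.14, 95% interval -0.35 to 0.51, limma adjusted p = 0.887).

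SMAD6 (7984353), the inhibitory SMAD and itself a BMP target, was at 4.90 in RS4;11 and 5.36 in SEM, against 5.21 in NALM6 and 5.05 in REH. All 4 values lay near the 25th percentile, where signal and background cannot be told apart, and the groups overlapped. The group difference was 0.00 (SE 0.21, 95% interval -0.62 to 0.62, limma adjusted p = 0.999).

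**Figure D2:**
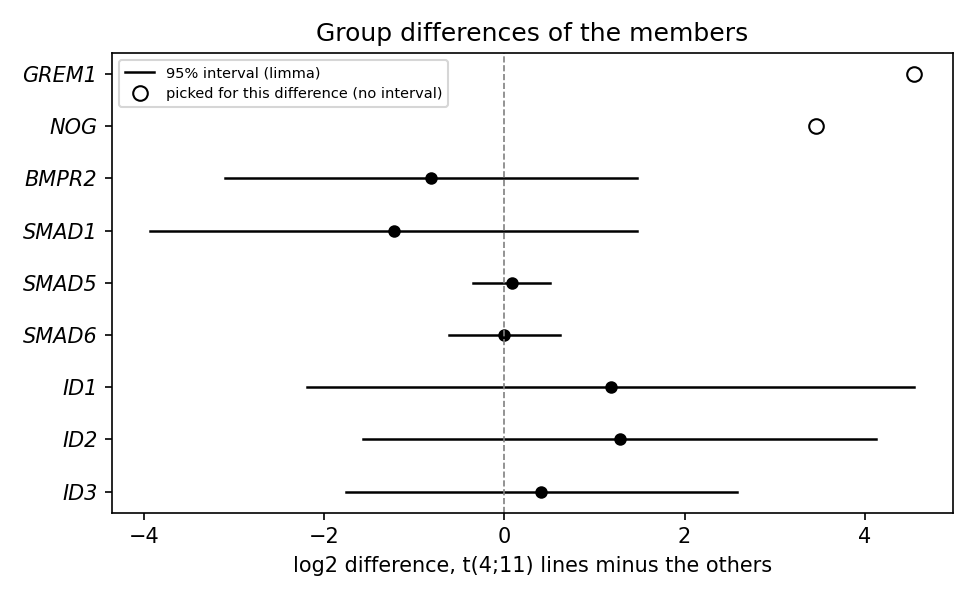
Difference of log2 expression between the translocation lines and the others for the 9 measured genes. Lines are limma's 95% intervals, and open points are the genes picked for this difference, shown without one. All 7 intervals include 0, and those of SMAD5 (-0.35 to 0.51) and SMAD6 (-0.62 to 0.62) are the narrowest.

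ID1 (8061564), an inhibitor of E proteins, was at 4.45 in RS4;11 and 7.33 in SEM, against 4.55 in NALM6 and 4.87 in REH. SEM alone was above its array's median, 5.48-fold above REH, and the other 3 lines lay at or below the 25th percentile of theirs. Between the groups it differed by 1.18 (SE 1.12, 95% interval -2.19 to 4.55, limma adjusted p = 0.773). It was -0.25 without SEM and 2.62 without RS4;11.

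ID2 (8040103), of the same family, was at 7.42 in RS4;11 and 9.85 in SEM, against 7.29 in NALM6 and 7.43 in REH. SEM was 5.36-fold above REH, and the other lines lay within 0.14 of each other, all above their medians. The group difference was 1.28 (SE 0.95, 95% interval -1.57 to 4.12, limma adjusted p = 0.744), and it was 0.06 without SEM and 2.49 without RS4;11. SEM was at least 2-fold above each of the other lines in 1.64% of all genes and at least 4-fold above them in 0.691%. Among markers of other cell types, PECAM1 was also highest in SEM, at 9.51 against at most 6.04 in the other lines, and the myeloid marker CSF1R was at 7.69 against at most 5.88. The 4 endothelial markers summed to 798 in SEM and to between 101.9 and 140.6 elsewhere, but CDH5, VWF and KDR lay between 4.37 and 4.76 in every line. The 6 myeloid markers summed to 711.5 in SEM, 522.8 in RS4;11, 995.2 in NALM6 and 433.3 in REH. Of these markers, CD14 (4.59 to 4.81), ELANE and ITGAM lay below the array median in every line. LYZ was above it in NALM6 (9.65), SEM (8.50) and RS4;11 (8.27) but below it in REH (5.80). MPO was above it only in REH (7.57). The part of PECAM1 and CSF1R in the ID1 and ID2 values was not tested.

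ID3 (7913655) did not share the SEM pattern of ID1 and ID2. It was at 9.88 in RS4;11 and 10.69 in SEM, against 9.04 in NALM6 and 10.71 in REH. SEM and REH were level with each other and NALM6 was lowest, 1.8-fold below RS4;11. The group difference was 0.41 (SE 0.72, 95% interval -1.76 to 2.58, limma adjusted p = 0.882), and it was -0.42 without NALM6.

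Of the 7 genes not picked, 4 thus had a single line at least 2-fold from each of the other 3. The share over all genes was 8.81%. With GREM1 and NOG, the count was 5 of the 9 genes. These 5 were BMPR2 (RS4;11 low), ID1 and ID2 (SEM high), SMAD1 (NALM6 high) and NOG (NALM6 low, as in 1.16% of all genes). After repeated quantile normalization 4 of these remained and NOG was the exception. With 1 array a line, these differences have no replicate check. The translocation lines differed at least 2-fold in 3 of the 9 (BMPR2, ID1 and ID2), against 6.00% of all genes. NALM6 and REH differed so in 4 (NOG, BMPR2, SMAD1 and ID3), against 8.62%. NOG was picked for its group difference, so nothing is read from its place in these counts.

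Likeness of pattern was measured as the root-mean-square difference between log2 profiles, each centred on its own mean over the 4 lines. GREM1 lay nearest to SPART (0.18), SNX10 (0.19) and SGCB (0.20), and 0.66 from NOG. NOG lay nearest to TMSB15A (0.33), GATM (0.34) and MEST (0.40). ID1 was 0.18 from ID2 and 0.95 from ID3, and its nearest genes were SDC2 (0.05), A2M (0.11) and MIPOL1 (0.12). ID2 lay nearest to KHDRBS2 (0.05), ZNF239 and FAM81A (0.07 each). The nearest to BMPR2 were C5 (0.10), MDK (0.15) and MAP3K12 (0.16), and the nearest to SMAD1 were SLA2 (0.14), ENTPD7 (0.17) and ZFY (0.19). Many genes can lie this close over only 4 points.

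Of the other genes of the pathway, 70 were measured, and limma called 0 of them at an adjusted p under 0.05. At an unadjusted p under 0.05, 1 was higher in the translocation lines (SMAD9) and 3 were lower (ENG, NEDD4L and TCF4). Over all genes 9.39% passed this unadjusted threshold in limma, so nothing is read from these counts. The median difference was 0.01 over the 70 and 0.01 over all genes. In 39 of the 70 no line lay above its array's median, and the same share over all genes is not given here. Among the 70 the groups were separated at least 2-fold upward in SMAD9 and downward in NEDD4L and TCF4. Such a separation, in either direction, held for 1.84% of all genes.

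Of the 14 BMP ligands, BMP4 was the 1 that stood 4-fold apart in a line. It was at 4.69 in RS4;11 and 7.58 in SEM, against 4.61 in NALM6 and 4.62 in REH. SEM was thus 7.44-fold above the next line, and the other 3 lay below the 25th percentile. Of the listed pathway genes, SEM stood at least 2-fold above each other line in BMP4, ID1, ID2, ACVR2A, SKI and ZNF423. The SMAD regulator SKI was at 9.53 in SEM and at most 8.15 elsewhere. The part of BMP4 in the ID1 and ID2 values was not tested. The group difference of BMP4 was 1.52 (SE 1.12, limma adjusted p = 0.743). The ligands had a median difference of 0.00, and 11 of the 14 were above the array median in no line.

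The 12 other measured antagonists had a median difference of 0.04, between -1.59 and 0.87. CHRDL1, a chordin-like antagonist, was at 7.63 in NALM6, the line lowest in NOG. It was at 4.49 in RS4;11, 4.50 in SEM and 4.54 in REH. TWSG1, which binds BMPs together with chordin, was the only one of the 12 above the median in all lines, at 8.83 to 9.85. Among the other receptors and co-receptors the median difference was 0.01. The BMP co-receptor gene ENG was at 9.51 in RS4;11 and 9.64 in SEM, against 9.97 in NALM6 and 10.18 in REH (difference -0.50, SE 0.13, limma adjusted p = 0.458).

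SMAD9, the third SMAD of the BMP branch, was at 10.67 in RS4;11 and 8.37 in SEM, against 5.40 in NALM6 and 5.25 in REH. Both translocation lines were higher than both others, and RS4;11 was 4.89-fold above SEM. The means were 9.52 ± 1.62 and 5.32 ± 0.11 (SD, n = 2), a difference of 4.20 (SE 0.89, 95% interval 1.51 to 6.88, limma adjusted p = 0.408), with an interval that leaves out 0 before adjustment for the 18377 genes. The common partner SMAD4 lay between 10.97 and 11.19 in all lines (difference 0.11, SE 0.11, limma adjusted p = 0.794).

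SMAD7, the inhibitory SMAD of both branches, was highest in NALM6 at 8.09, with 5.24 in RS4;11, 5.88 in SEM and 6.27 in REH. This is the line in which SMAD1 was high, and SMAD7 is named here after its values were seen. NEDD4L, a ubiquitin ligase that acts on activated SMADs, was at 6.73 in RS4;11 and 7.56 in SEM, against 9.01 in NALM6 and 8.57 in REH (difference -1.65, SE 0.37, limma adjusted p = 0.421). The nearest lines, SEM and REH, were 2.02-fold apart.

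**Figure D3:**
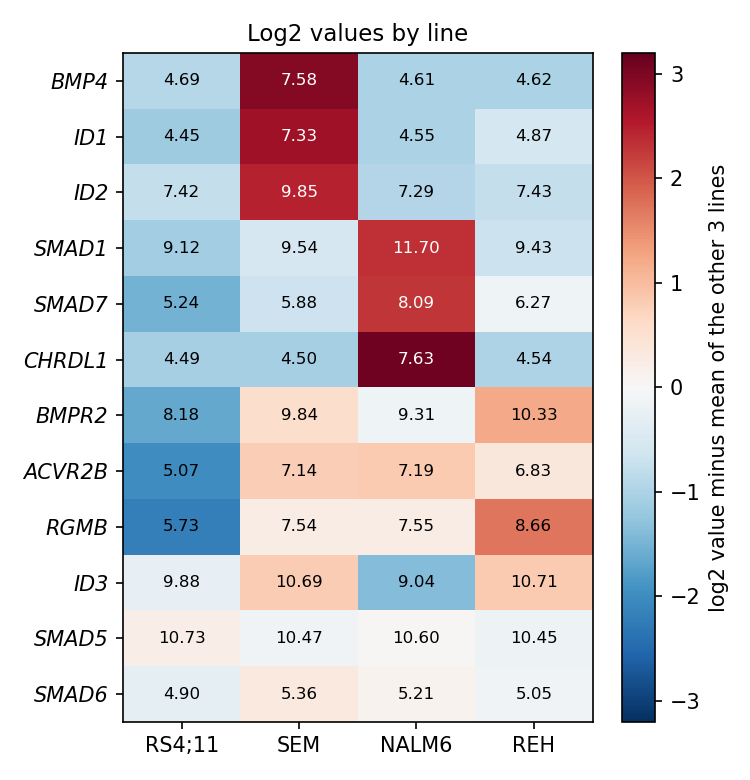
Log2 values of 12 pathway genes in the 4 lines, printed in each cell, with colour for the value minus the mean of the other 3 lines. BMP4, ID1 and ID2 were highest in SEM, SMAD1, SMAD7 and CHRDL1 in NALM6, and BMPR2, ACVR2B and RGMB were lowest in RS4;11. ACVR2A, SKI and ZNF423, also highest in SEM, are not shown.

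The 7 other target genes on the list (ID4, HEY1, ATOH8, MSX1, MSX2, DLX5 and HAMP) lay below the array median in every line, with differences of -0.15 to 0.06. Of the E proteins that ID proteins bind, TCF4 was lower in both translocation lines, at 6.09 and 5.71 against 11.89 in NALM6 and 11.78 in REH (difference -5.93, SE 0.18, limma adjusted p = 0.0513). TCF3 lay between 9.92 and 10.56 (difference 0.07, SE 0.31, limma adjusted p = 0.957) and TCF12 between 11.57 and 12.33 (difference 0.34, SE 0.25, limma adjusted p = 0.743), with overlapping groups for both. SEM, where ID1 and ID2 were high, had TCF4 at 5.71 and TCF3 at 9.92. RS4;11, with ID1 at 4.45, had TCF4 at 6.09, and NALM6, with ID1 at 4.55, had TCF3 at 9.95. A link between the ID and E protein values was not tested.

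In the TGF-beta and activin branch the median difference over 13 genes was -0.06. SMAD2 lay between 10.41 and 10.80 in all lines. SMAD3 was at 9.05 in RS4;11 and 6.99 in SEM, against 5.65 in NALM6 and 10.10 in REH, so that the lines within each group lay far apart (difference 0.15, SE 1.90, limma adjusted p = 0.988). The ligand gene TGFB1 was at 5.95 in RS4;11 and 9.28 in SEM, against 8.78 in NALM6 and 8.36 in REH, 5.3-fold lower in RS4;11 than in the next line.

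**Figure D4:**
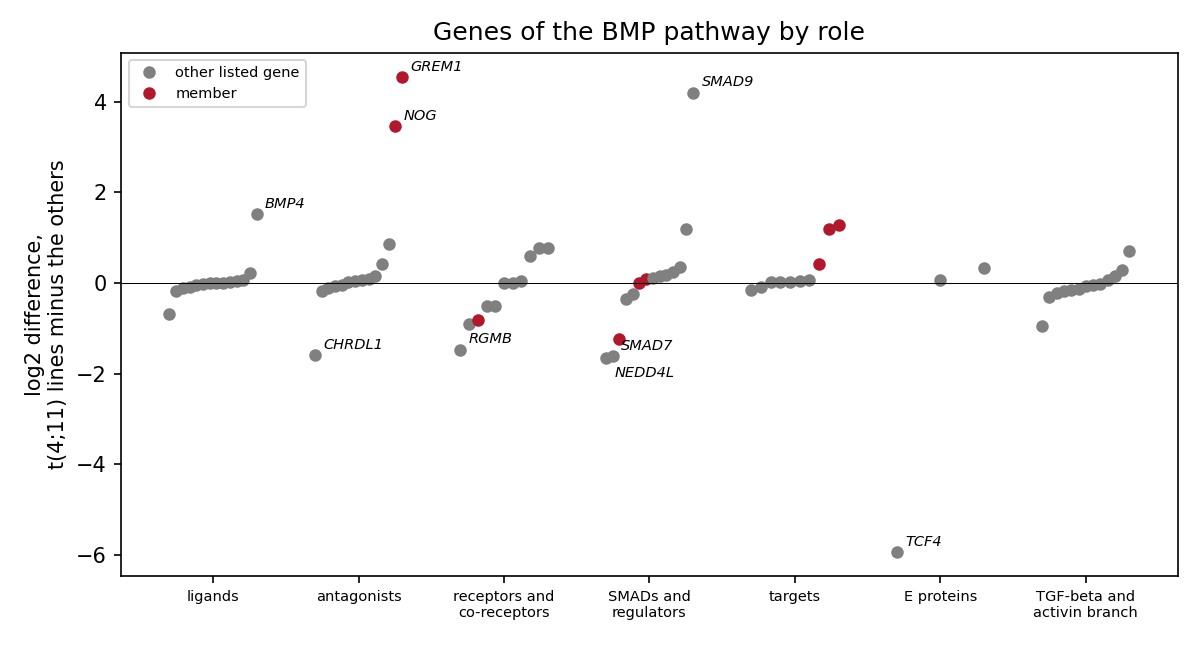
Difference of log2 expression between the translocation lines and the others for each measured gene of the pathway, by role, with the 9 genes of this group in red and the other listed genes in grey. GREM1, NOG and SMAD9 lie above 3, TCF4 lies at -5.93, and most other genes lie near 0.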

How the data were processed

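The arrays of 4 cell lines, 1 per line, were used as deposited. The deposited log2 values were made with RMA and Partek, per the submitters' processing notes, and their versions were not given in the sources used here. RMA subtracts background, equalizes the arrays' distributions by quantiles and summarizes each probe set. The log2 scale was inferred from the values, which run from 3.44 to 14.27. RMA gives no detection call. Of 32968 probe sets, 19310 had exactly 1 gene symbol, and these gave 18377 genes, each by its probe set of highest mean. Groups follow the labels, with RS4;11 and SEM in the translocation group and NALM6 and REH in the other. The labels name no batch. P-values measure the spread between these lines only.

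The groups were compared by lmFit and eBayes of limma 3.58.1 under R 4.3.3, two-sided. The p-values were adjusted over all genes by Benjamini and Hochberg and called under 0.05. The fit was also run on simulated data with independent noise, as a check of the code only. Nothing about power for the tested genes is read from that check. A line was called apart at 2-fold from each of the other 3. The genes and lists were chosen with earlier results of these data known. Besides the 10 genes, the rule for named genes took listed genes separated 2-fold, called, or 4-fold apart in 1 line, the 3 E proteins, SMAD2, SMAD3 and SMAD4, and the 3 genes most like GREM1, NOG and each other gene spanning 2 log2 units. ENG, TWSG1, ACVR2A, ACVR2B, RGMB, SKI, ZNF423, SMAD7, the 7 targets and the genes of the closing section were added after their values were seen. Alternatives were repeated quantile normalization, centred arrays, the mean of probe sets, removal of dim genes, an intensity trend or robust eBayes, other thresholds and leaving out each line. Tables were made with pandas 2.3.3 and numpy 2.4.6 under Python 3.11.15, and plots with matplotlib 3.10.9.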

Additional observations from a re-analysis of the deposited data

How the results depend on the processing

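Limits are the 4 arrays, 1 for each line, and the lack of a detection call. None of the 7 tested genes was called by limma under any alternative that kept all 4 lines. Of 96 recomputed differences, 89 kept their direction and 7 changed sign. These include the picked GREM1 and NOG, for which direction and size were compared and no threshold was applied. An intensity trend, robust eBayes, removal of dim genes and another threshold leave a gene's difference unchanged by construction. Nothing is therefore read from the count of 89. The SMAD6 difference changed sign with centred arrays (0.02). Without each line in turn the differences ran from 4.28 to 4.83 for GREM1, 2.88 to 4.03 for NOG, -1.64 to 0.02 for BMPR2, -2.37 to -0.10 for SMAD1, -0.05 to 0.21 for SMAD5, -0.23 to 0.23 for SMAD6, -0.25 to 2.62 for ID1, 0.06 to 2.49 for ID2 and -0.42 to 1.25 for ID3. The count of these 9 genes separated 2-fold was 2 to 4 without each line: ID1 and ID2 joined without RS4;11, BMPR2 without SEM and SMAD1 without REH. Leaving out a line sets 1 line against 2, so a gene with 1 outlying line can become separated. The share over all genes is not given for that setting, so nothing is read from those counts. At 4-fold, 3 genes stood apart in 1 line in place of 5. Over all genes limma called 28 with centred arrays, 17 without dim genes, 42 at an adjusted p under 0.1 and 0 without any 1 of the lines, against 4, and the cause was not tested. TCF4 was the 1 other pathway gene called with centred arrays, without dim genes and at an adjusted p under 0.1. Removal of dim genes left out SMAD6. No paired analysis was possible because the labels number no replicates and the 4 samples are different cell lines, so nothing pairs a line of one group with a line of the other.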

Other observations

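The measured protein-coding genes next to GREM1 and NOG, by their order in RefSeq (GRCh38.p14), were looked up after the other values had been seen. On either side of GREM1, SCG5 was at 5.39 in RS4;11 and 5.45 in SEM, against 5.75 in NALM6 and 6.09 in REH (difference -0.50, SE 0.16, limma adjusted p = 0.524), and FMN1 was at 6.17, 6.28, 7.27 and 5.21 in the same order (difference -0.02, SE 0.80, limma adjusted p = 0.998). Neither had both translocation lines above the others. Further from GREM1, CHRNA7 was higher in both translocation lines (difference 0.16), with every line below its array's median. ARHGAP11A, RYR3 and AVEN were not higher in both. Next to NOG, ANKFN1 lay between 4.41 and 4.58 in all lines. DGKE, a diacylglycerol kinase gene on the other side of NOG, was at 9.96 in RS4;11 and 10.48 in SEM. It was at 9.40 in NALM6 and 8.95 in REH (difference 1.05, SE 0.28, limma adjusted p = 0.471). DGKE was thus higher in both translocation lines, by less than NOG itself. Further from NOG, PCTP (difference 0.48) and COIL (0.58) were also higher in both translocation lines, and TMEM100 and TRIM25 were not. Groups did not overlap, in either direction, in 42.8% of all genes. The share higher in the translocation lines alone is not given here, so nothing is read from how many neighbours were higher.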
